A study of Bos taurus with 18 samples.

Results

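Leukocyte lineage marker genes are genes whose transcripts are carried mainly by white blood cells, and the set described here holds 45 of them. They were chosen by gene symbol and cover 1 marker of all leukocytes (PTPRC), 19 of T and natural killer (NK) cells, 8 of B and plasma cells, 13 of myeloid cells and 4 of mast cells. The symbols of 44 were found among the 27270 genes of the count table, and ITGAX was not analysed here. All 44 passed the filter on low counts, as did 22202 genes in all. The RNA came from rumen papillae, the small folds that enlarge the rumen wall, of 9 rumen-cannulated, dry Holstein cows. Each cow was biopsied while eating 100% forage and once more on high grain (65% concentrate). The 5 control cows gave the groups forage_control and grain_control, with 5 libraries in each, and the 4 cows that received a supplement named PHY gave forage_PHY and grain_PHY, with 4 in each. The labels do not expand PHY, do not say whether it was fed before the forage biopsy, and tie no library to a cow. Libraries of one cow were therefore treated as independent, and replicate numbers only name libraries in their order of deposit.

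The rumen wall is a stratified, keratinised epithelium on a vascular core, and its resident leukocytes include T cells between the epithelial cells, Langerhans-type dendritic cells, macrophages, mast cells and scattered B and plasma cells. PTPRC encodes CD45, the phosphatase on the surface of nearly all nucleated blood cells. In a whole biopsy each of these cells is a minority, so its markers are read at low counts, and fewer cells of a type cannot be told apart from less RNA per cell.

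Libraries held 15808999 to 34471682 reads on forage and 3953060 to 23949058 on grain. Levels are given as CPM, the count of a gene scaled to library size, on edgeR's effective library sizes unless the total is named. The rule for the set asked for the markers beside the reads on olfactory receptor genes, which encode odour receptors of the nose and serve as a measure of reads on genes that most tissues do not use. The 144 olfactory receptor genes took 16.3 to 65.0 CPM of the total on forage (median 22.7) and 32.9 to 345.3 on grain (median 76.0). Their raw counts were 424 to 1030 reads on forage and 525 to 1365 on grain. The highest libraries were grain_PHY 1 (345.3), grain_control 1 (168.6) and grain_control 4 (125.4). They were also the libraries with the fewest total reads (3953060, 5433497 and 9944586), and the part of depth in their olfactory receptor CPM was not tested. Epithelial markers ran the other way on grain, with a summed level of 13702 to 34359 CPM on forage and 6680 to 25620 on grain, 5 of 13 lower and 0 higher (edgeR), where 13.8% of all genes were lower and 18.1% higher. Markers of red blood cells were higher in 5 of 11 genes and of melanocytes in 3 of 6. Those of fibroblasts were higher in 1 of 12, of endothelium in 0 of 12 and of smooth muscle in 0 of 8. The part of these values in the marker results was not tested, except where olfactory receptor reads enter a model below.

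The first comparison asked which markers differed between grain and forage over both arms. Some markers of cytotoxic T and NK cells, of B cells, of mast cells and of myeloid cells rose on grain. Among macrophage markers CD163 rose, while CSF1R, CD14, CD68 and AIF1 did not pass the test. Nor did CD45 or the T cell receptor chains of the CD3 complex. With edgeR 15 of 44 markers were higher (adjusted p under 0.05) and 0 were lower, where 18.1% of all genes were higher, 13.8% lower and 31.9% called in either direction. The median log2 fold change was 0.93 over the markers and 0.20 over all genes, and 36 markers lay above 0. All 15 calls were lost, as were those of all other genes, once olfactory receptor reads entered the model. An unadjusted p under 0.05 was reached by 19 markers, against 50.3% of all genes. DESeq2 called 20 markers and limma voom 23, against 41.9% and 45.6% of all genes. In edgeR, DESeq2's size factors gave 17 markers, no filter 12 and a stricter filter 15 of 37, against 29.8%, 25.7% and 30.4%. The 2 diets overlapped in CPM for each of the 44 markers, while 0.207% of all genes had diets that did not overlap.

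**Figure D1:**
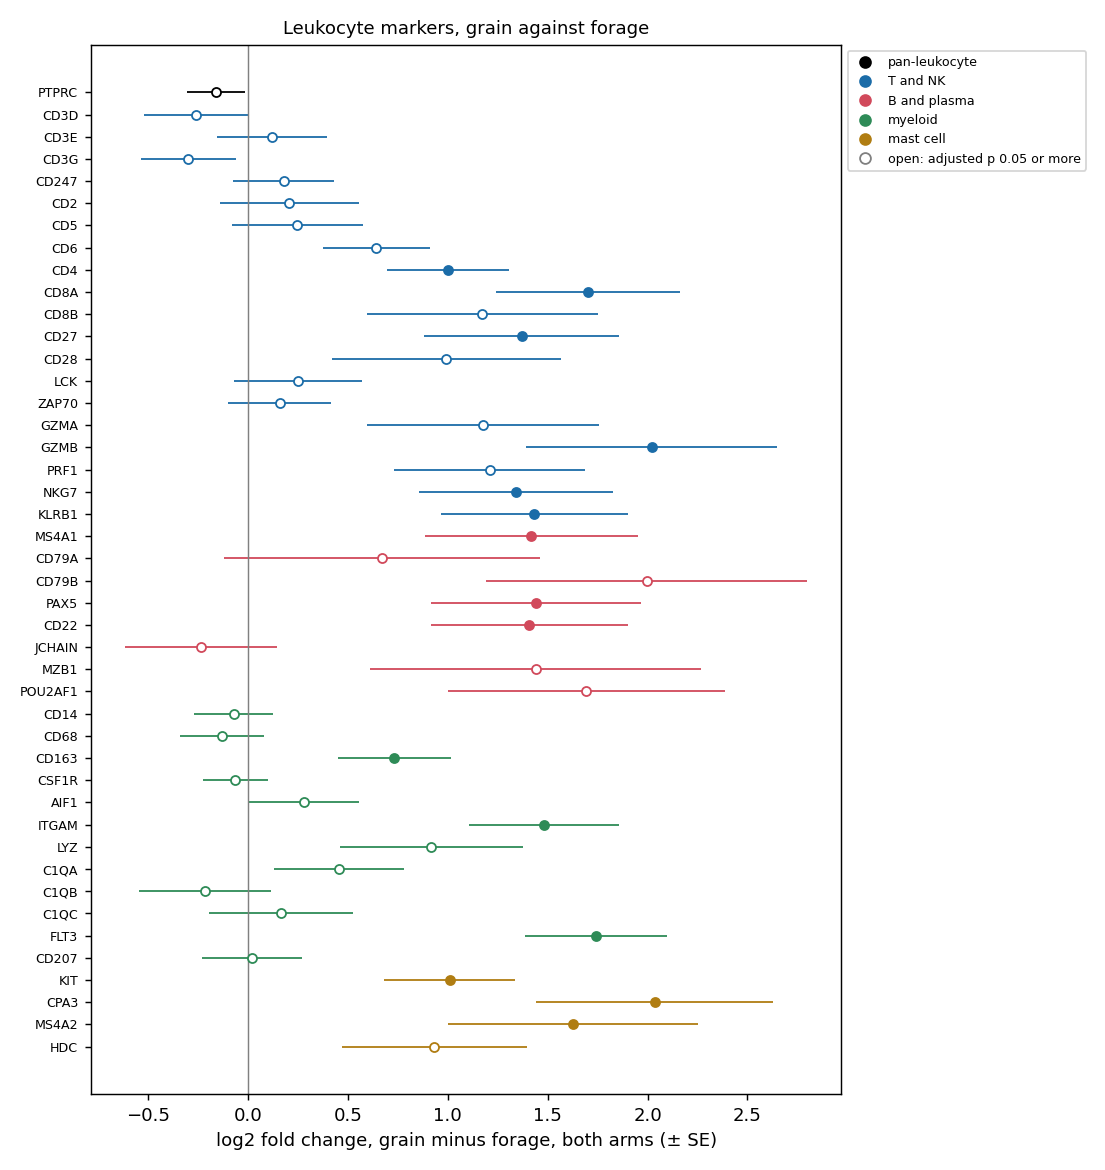
Log2 fold change of each of 44 markers, grain minus forage over both arms (edgeR, n = 9 libraries per diet), with bars of 1 standard error and colours for the lineage. Filled points are the 15 markers with an adjusted p under 0.05, all above 0, and open points are the rest, with PTPRC at −0.16 and CPA3 at 2.03.

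PTPRC (ENSBTAG00000023144) did not pass the test between the diets. In forage_control it stood at 21.8, 20.8, 23.9, 22.3 and 17.6 CPM in libraries 1 to 5, and in forage_PHY at 23.8, 30.3, 15.2 and 19.6. On grain the values were 18.3, 18.4, 26.1, 15.4 and 18.5 in controls and 18.7, 21.9, 17.1 and 20.6 with PHY. The grain range lay within the forage range. The log2 fold change was −0.16 ± 0.15 (SE, edgeR adjusted p = 0.356), from 151 to 456 reads per library on grain.

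Of the 19 T and NK markers 6 rose on grain (CD4, CD8A, CD27, GZMB, NKG7 and KLRB1) and 0 fell. Over all genes 18.1% were higher and 13.8% lower. The median log2 fold change of the 19 was 0.99. The chains of the T cell receptor complex did not pass the test in either direction. CD3E (ENSBTAG00000015710), a signalling chain of that complex, ran from 2.12 to 4.99 CPM on forage (median 3.33) and from 1.95 to 6.65 on grain (median 4.24), with a log2 difference of 0.12 ± 0.28 (edgeR adjusted p = 0.724). CD3D, CD3G, CD247, CD2, CD5, LCK and ZAP70, the other chains, adhesion and signalling molecules of T cells, had log2 fold changes of −0.30 to 0.25. CD6, another T cell marker, did not pass either, but its median went from 3.55 CPM on forage (2.07 to 6.93) to 5.29 on grain (3.60 to 13.1). It was called without forage_control 2, grain_control 5 or grain_PHY 4, fits that called 37.4% to 43.3% of all genes.

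Of the 3 coreceptor genes CD8A and CD4 rose and CD8B did not pass the test. CD8A (ENSBTAG00000021141), which marks cytotoxic T cells, was read at 1.43, 1.91, 1.93, 0.532 and 0.258 CPM in forage_control and 0.253, 0.717, 0.886 and 0.731 in forage_PHY. On grain it stood at 3.99, 1.81, 1.03, 1.98 and 1.54 CPM in controls and 4.98, 6.40, 3.67 and 0.983 with PHY. Of the 9 grain libraries 5 lay above every forage library, and the others lay within the forage range. CD8A rose 3.25-fold (log2 1.70 ± 0.46, edgeR adjusted p = 0.0217), on 8 to 69 reads per library. CD4 (ENSBTAG00000003255), the coreceptor of helper T cells, went from 1.54 to 4.96 CPM on forage (median 2.39) to 2.46 to 10.8 on grain (median 4.42), a rise of 1.0 ± 0.31 in log2 (edgeR adjusted p = 0.0257). In CD4 the libraries above all forage values were grain_control 1, grain_PHY 1 and grain_PHY 2. CD8B, the other chain of the CD8 coreceptor, had medians of 0.679 CPM on forage and 1.38 on grain and a log2 difference of 1.17 ± 0.58 (edgeR adjusted p = 0.103). In grain_PHY 1, where CD8A stood at 4.98 CPM, CD8B was at 0.65, and its highest library was grain_control 1 at 5.56.

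Costimulatory receptors were split by the test. CD27, a receptor of the tumour necrosis factor family on T cells and some B cells, lay between 0.388 and 3.29 CPM on forage (median 1.21) and between 1.03 and 8.34 on grain (median 2.77). It rose by 1.37 ± 0.49 on the log2 scale (edgeR adjusted p = 0.0384). CD28, the main costimulatory receptor of T cells, had a log2 difference of 0.99 ± 0.57 (edgeR adjusted p = 0.157), with 2 to 33 reads per library.

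Genes of cytotoxic granules were read at few counts. GZMB (ENSBTAG00000053015), a protease that NK and cytotoxic T cells release into target cells, was read at 0.151, 1.67, 1.53, 0.245 and 0.0969 CPM in forage_control and 0.285, 0.623, 0.886 and 0.146 in forage_PHY. On grain it stood at 5.44, 2.02, 1.95, 2.35 and 0.421 CPM in controls and 6.07, 1.39, 2.22 and 0.295 with PHY. Grain libraries above all forage libraries numbered 6 of 9, and grain_control 5 and grain_PHY 4 were near the forage median. GZMB rose 4.06-fold (log2 2.02 ± 0.63, edgeR adjusted p = 0.0265). KLRB1, a lectin-like receptor of NK cells, had a median of 0.623 CPM on forage (0.332 to 3.13) and 2.22 on grain (0.795 to 5.80), and rose by 1.43 ± 0.47 (edgeR adjusted p = 0.0301). PRF1, which forms pores in target cells, did not pass (log2 1.21 ± 0.48, edgeR adjusted p = 0.0531), nor did the protease GZMA (1.18 ± 0.58, edgeR adjusted p = 0.105).

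**Figure D2:**
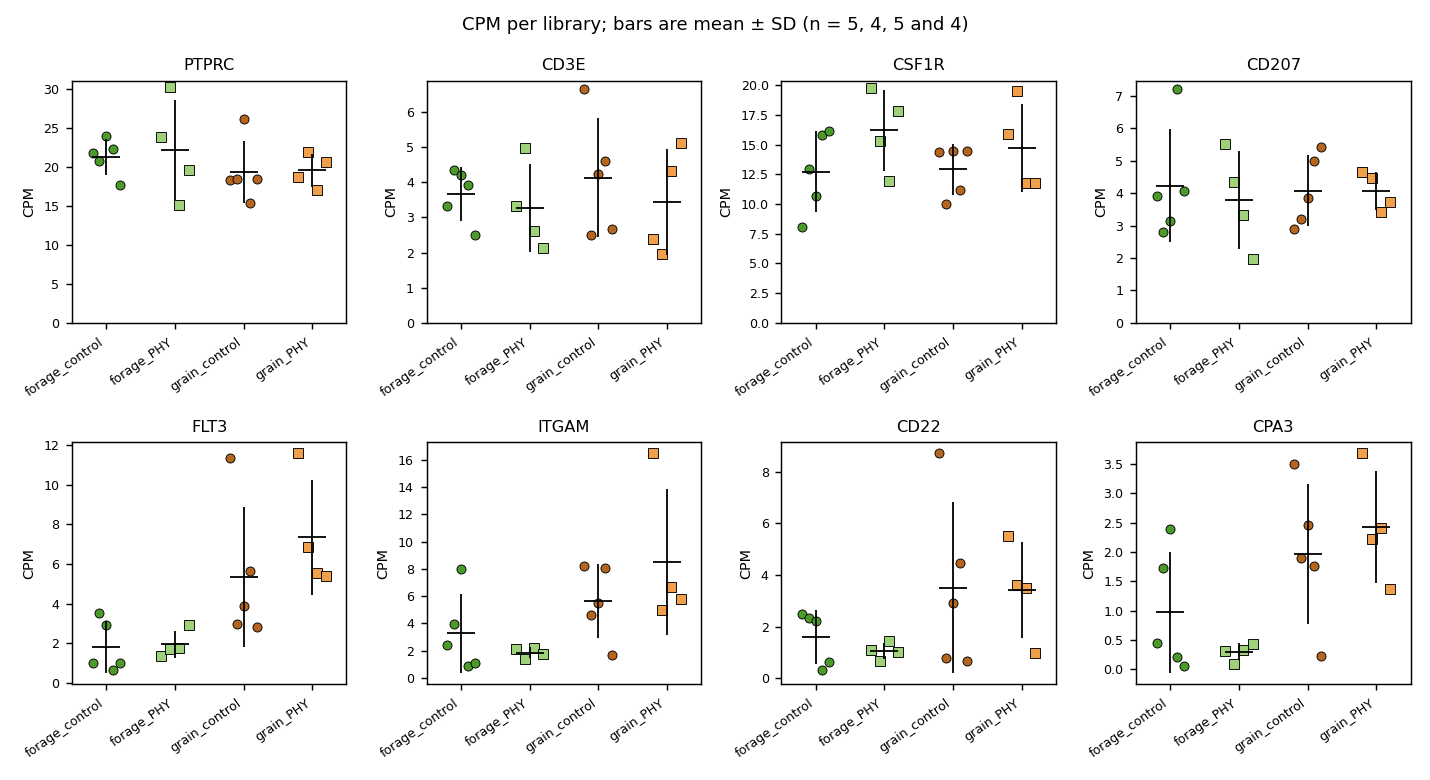
CPM of 8 markers in each of the 18 libraries by group (n = 5, 4, 5 and 4), with mean and SD as bars and a linear axis per gene. PTPRC, CD3E, CSF1R and CD207 in the upper row had overlapping ranges and close means on both diets, and FLT3, ITGAM, CD22 and CPA3 in the lower row had their highest libraries on grain, led by grain_control 1 or grain_PHY 1.

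Of the 8 B and plasma cell markers 3 rose (MS4A1, PAX5 and CD22) and 0 fell, against 18.1% and 13.8% of all genes. The median log2 fold change of the 8 was 1.43. CD22, an inhibitory coreceptor of the B cell receptor, was read at 2.49, 2.33, 2.2, 0.327 and 0.614 CPM in forage_control and 1.11, 0.654, 1.44 and 1.02 in forage_PHY. On grain the values were 8.70, 0.782, 2.92, 4.47 and 0.654 in controls and 5.52, 3.62, 3.49 and 0.983 with PHY. Above the forage range lay 6 grain libraries, and grain_control 2, grain_control 5 and grain_PHY 4 lay inside it. CD22 rose by 1.41 ± 0.49 (log2, edgeR adjusted p = 0.0372). MS4A1, which encodes CD20, went from a median of 1.13 CPM (0.0969 to 1.67) to 2.29 (0.421 to 4.98), a rise of 1.42 ± 0.53 (edgeR adjusted p = 0.0459). PAX5, the transcription factor of B cell identity, rose by 1.44 ± 0.52 (edgeR adjusted p = 0.041), from a median of 0.997 to 2.28 CPM.

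Among the other B lineage markers CD79A, a signalling chain of the B cell receptor, had a log2 difference of 0.67 ± 0.79 (edgeR adjusted p = 0.482). It had 0 reads in forage_control 1 and forage_control 4, which allows up to 0.226 and 0.123 CPM (3 reads, counting error only). CD79B had 0 reads in 2 libraries, MZB1 in 3 and POU2AF1 in 1, all on forage, and none of the 3 passed the test. Their medians were 0.0731, 0.158 and 0.439 CPM on forage and 0.464, 0.393 and 1.83 on grain. CD79B and POU2AF1 were called without forage_control 2, forage_control 3 or grain_control 5, fits that called 42.6%, 41% and 43.3% of all genes. JCHAIN (ENSBTAG00000018531), which links the units of secreted IgA and IgM and marks plasma cells, differed in sign from the rest. It ran from 1.13 to 5.36 CPM on forage (median 2.81) and 0.217 to 5.72 on grain (median 3.08), a log2 difference of −0.24 ± 0.38 (edgeR adjusted p = 0.611). Its lowest library was grain_PHY 1, with 2 reads, where CD22, PAX5 and MZB1 were at or near their highest.

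Of the 12 myeloid markers analysed 3 rose (CD163, ITGAM and FLT3) and 0 fell, against 18.1% and 13.8% of all genes. The median log2 fold change of the 12 was 0.22, close to the 0.20 of all genes. FLT3 (ENSBTAG00000018572), the growth factor receptor of dendritic cells and their precursors, was read at 0.981, 3.53, 2.93, 0.613 and 0.969 CPM in forage_control and 1.33, 1.71, 1.77 and 2.93 in forage_PHY. On grain it stood at 11.4, 2.96, 3.90, 5.64 and 2.80 CPM in controls and 11.6, 6.86, 5.53 and 5.41 with PHY. The grain libraries above every forage library numbered 7 of 9, and the exceptions were grain_control 2 and grain_control 5. FLT3 rose 3.35-fold (log2 1.74 ± 0.36, edgeR adjusted p = 0.0201). Its raw reads, 13 to 59 on forage, were 55 to 107 on grain.

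ITGAM, the CD11b chain of the complement receptor integrin on monocytes, neutrophils and some NK cells, rose by 1.48 ± 0.38 (edgeR adjusted p = 0.0214). It was read at 2.41, 3.94, 8.0, 0.899 and 1.10 CPM in forage_control and 2.12, 1.37, 2.21 and 1.76 in forage_PHY. On grain the levels were 8.22, 4.65, 5.50, 8.06 and 1.68 CPM in controls and 16.5, 5.01, 6.67 and 5.80 with PHY. In ITGAM 3 grain libraries lay above forage_control 3, the highest on forage, and grain_control 5 lay below the forage median. CD163, a haemoglobin scavenger receptor of macrophages, rose by 0.73 ± 0.28 (edgeR adjusted p = 0.0493), from 2.16 to 11.5 CPM on forage (median 8.41) to 6.40 to 15 on grain (median 12.1).

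The remaining 9 myeloid markers did not pass the test. CSF1R, the receptor for the growth factor that maintains macrophages, lay between 8.07 and 19.8 CPM on forage and between 10.0 and 19.5 on grain, with a log2 difference of −0.06 ± 0.16 (edgeR adjusted p = 0.753). CD207, the langerin of Langerhans cells, had medians of 3.92 and 3.84 CPM and a log2 difference of 0.02 ± 0.25 (edgeR adjusted p = 0.952). C1QA, a chain of complement C1q made by macrophages, had a log2 difference of 0.46 ± 0.33 (edgeR adjusted p = 0.248). CD14, CD68, AIF1, C1QB and C1QC lay between −0.21 and 0.28, and LYZ, lysozyme, at 0.92 ± 0.46 (edgeR adjusted p = 0.107).

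Of the 4 mast cell markers 3 rose (KIT, CPA3 and MS4A2) and 0 fell, against 18.1% and 13.8% of all genes. The median of the 4 was 1.32. CPA3, a carboxypeptidase of mast cell granules, was read at 0.453, 1.73, 2.40, 0.204 and 0.0646 CPM in forage_control and 0.317, 0.0935, 0.332 and 0.439 in forage_PHY. On grain it stood at 3.51, 1.89, 2.46, 1.76 and 0.234 CPM in controls and 3.68, 2.23, 2.40 and 1.38 with PHY. The 4 grain_PHY libraries lay above the 4 of forage_PHY, while controls overlapped. The same held for other markers, among them FLT3, ITGAM and CD8A, so the pattern was not particular to CPA3. How common it was over all genes was not tested. CPA3 rose 4.10-fold (log2 2.03 ± 0.59, edgeR adjusted p = 0.0232). KIT, the stem cell factor receptor, which melanocytes also carry, had medians of 1.78 and 3.52 CPM and rose by 1.01 ± 0.33 (edgeR adjusted p = 0.0299). MS4A2, the beta chain of the IgE receptor, rose by 1.63 ± 0.63 (edgeR adjusted p = 0.0493), and HDC, which makes histamine, did not pass (0.93 ± 0.46, edgeR adjusted p = 0.107).

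Leaving out 1 library cost between 0 and 15 of these 15 calls, depending on the library. Without grain_PHY 1, the library with the fewest reads, edgeR called 0 of 44 markers, with a smallest adjusted p of 0.0616 (FLT3), and 0.00445% of all genes. The log2 differences of the 15 markers were then 0.74 to 1.91, against 0.73 to 2.03 with all libraries. FLT3, ITGAM and CD8A kept the call in the other 17 leave-outs, and CPA3 in all but those of grain_PHY 1 and forage_PHY 2 (adjusted p = 0.0502 to 0.0664). CD4 and GZMB lost it without grain_PHY 1, grain_control 1 or forage_PHY 1. The calls of CD27, NKG7, KLRB1, MS4A1, PAX5, CD22, CD163, KIT and MS4A2 were lost in 7 to 15 of the 18 leave-outs. With the share of all genes called in brackets, the markers called fell to 4 without forage_PHY 1 (9.27%) and to 4 without grain_control 1 (13.4%). They fell to 5 without forage_PHY 2 (12.3%) and to 6 without grain_control 4 (16.4%). The number was 7 without grain_PHY 2 (22.6%), and 8 without forage_control 1 (20.4%), forage_control 4 (20.2%) or forage_PHY 3 (21.4%). It was 9 without forage_control 5 (19.3%), and 10 to 20 without any other library (25.8% to 43.3%). The share of all genes called ran from 0.00445% without grain_PHY 1 to 43.3% without grain_control 5.

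The second comparison set the markers against the olfactory receptor reads. A model with a mean for each group and a slope on log2 olfactory receptor CPM asks how a gene varies among libraries of the same group. A slope of 1 means that a gene doubles when olfactory receptor CPM doubles. The slope was positive and past the test for 22 of 44 markers (edgeR adjusted p under 0.05) and negative for 0, where 31.5% of all genes had a positive and 27.9% a negative slope past it, 59.4% together. An unadjusted p under 0.05 was reached by the slopes of 25 markers and of 64.4% of all genes. B and plasma cell markers followed these reads in 7 of 8 genes (all but JCHAIN), with a median slope of 1.01. Mast cell markers did so in 3 of 4 (all but KIT, median 0.87), T and NK markers in 10 of 19 (median 0.42) and myeloid markers in 2 of 12 (ITGAM and FLT3, median −0.08). Both quantities are scaled by library size, so they share a denominator in part.

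CD27 had the smallest p of the slopes, at 1.11 ± 0.17 (edgeR adjusted p = 1.19e-05). GZMB had a slope of 1.24 ± 0.24, CD22 of 1.03 ± 0.21, PAX5 of 0.97 ± 0.21 and MS4A1 of 0.99 ± 0.23. FLT3 and ITGAM lay lower, at 0.70 ± 0.14 and 0.77 ± 0.15. PTPRC (−0.06 ± 0.08, edgeR adjusted p = 0.488), CSF1R (−0.04 ± 0.09) and CD3E (0.11 ± 0.15) had slopes near 0. JCHAIN had the lowest slope of the B lineage, −0.43 ± 0.21 (edgeR adjusted p = 0.0814). In the 6 libraries whose olfactory receptor CPM lay in the range that both diets shared, 0 slopes and 0% of all genes were called by edgeR (1 marker at an unadjusted p under 0.05), and that of CD27 was 0.94 (edgeR adjusted p = 0.97). That fit had 2 residual degrees of freedom, and the median slope of the markers in it was 0.60, against 0.40 in all libraries.

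**Figure D3:**
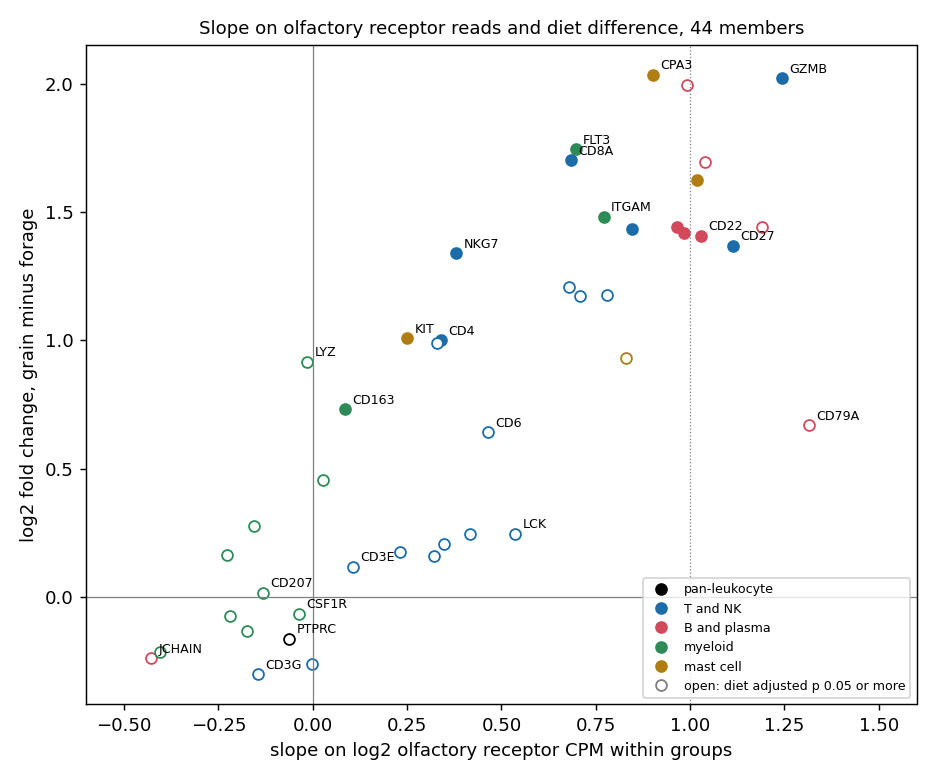
Slope of each of 44 markers on log2 olfactory receptor CPM within groups (x axis) against its log2 fold change, grain minus forage (y axis), both from edgeR, with colours for the lineage and filled points for the 15 markers called between diets. The slope and the diet difference come from the same 18 libraries. B lineage markers other than JCHAIN lie between slopes of 0.97 and 1.32, about the dotted line at 1, while PTPRC, CSF1R, CD207 and the CD3 chains lie near 0 on both axes.

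Of the 15 markers that rose on grain 11 also had a positive slope past the test, and 4 did not. These 4 were CD4 (0.34 ± 0.15, edgeR adjusted p = 0.053), NKG7 (0.38 ± 0.24, edgeR adjusted p = 0.166), CD163 (0.08 ± 0.18, edgeR adjusted p = 0.699) and KIT (0.25 ± 0.17, edgeR adjusted p = 0.191). Another 11 markers, among them CD5, CD6, LCK, ZAP70, GZMA, PRF1 and CD79A, had a slope past the test and no diet call. The last 18, PTPRC and most of the myeloid set included, had neither. Over all genes 18.1% were higher on grain and 31.5% had a positive slope past the test. How many genes had both was not worked out, so these counts cannot be read as a trait of the markers.

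With the olfactory receptor term in the model edgeR called 0 of 44 markers between the diets (1 at an unadjusted p under 0.05, FLT3) and 0% of all genes. The median log2 fold change was 0.11 over the markers and 0.03 over all genes. It was −0.05 for T and NK markers and −0.10 for B and plasma cell markers. Myeloid markers had a median of 0.42, with 11 of 12 above 0, and mast cell markers 0.34. FLT3 stood at 0.64 ± 0.31 in place of 1.74, CD8A at 0.67 ± 0.47 in place of 1.70, and CPA3 at 0.80 ± 0.58 in place of 2.03 (edgeR adjusted p = 0.999 for each). CD27 (−0.51 ± 0.38), CD22 (−0.37 ± 0.47), MS4A1 (−0.17 ± 0.51), PAX5 (−0.02 ± 0.49) and GZMB (−0.01 ± 0.69) changed sign. CD163 moved least of the 15, from 0.73 to 0.58 ± 0.44.

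**Figure D4:**
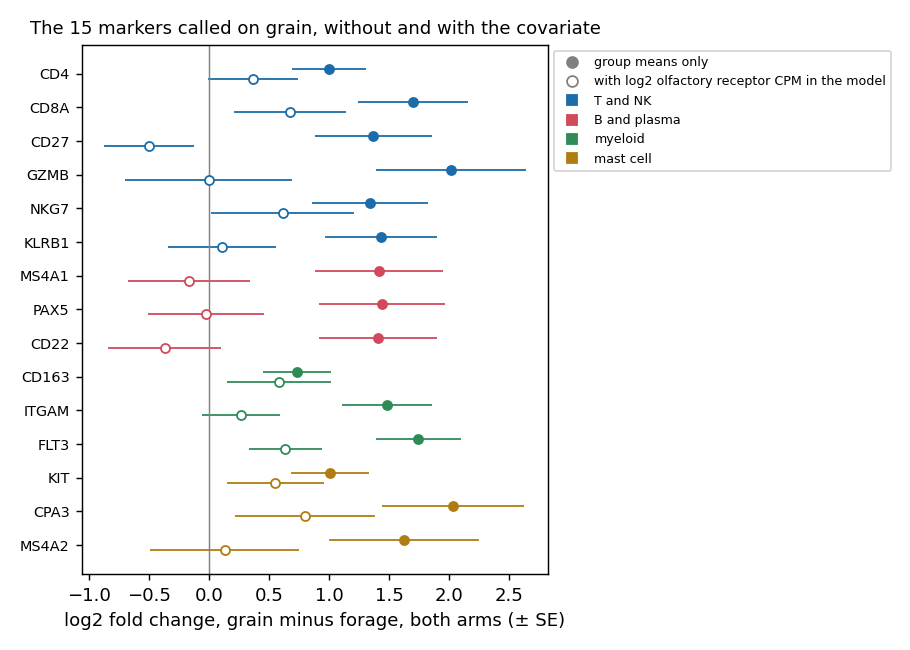
Log2 fold change, grain minus forage, of the 15 markers called between diets, from the model with group means (filled) and from that with log2 olfactory receptor CPM added (open), with bars of 1 standard error. FLT3 went from 1.74 to 0.64 and CD22 from 1.41 to −0.37, and CD163 went from 0.73 to 0.58.

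Without the 3 libraries highest in olfactory receptor CPM edgeR also called 0 markers of 43 tested (6 at an unadjusted p under 0.05), and 0% of all genes. The median log2 fold change of the markers was then 0.50, against 0.09 for all genes. The libraries left out were also those with the fewest total reads.

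The ratio of marker reads to olfactory receptor reads needs no library total. For the B and plasma cell markers together it lay between 0.167 and 0.387 in the 18 libraries, a 2.32-fold span, while their summed CPM of the total spanned 16.9-fold (4.14 to 70.1). The mast cell markers had a ratio of 0.0947 to 0.181, a 1.91-fold span, against 19.0-fold in CPM (1.97 to 37.4). The ratio of the T and NK markers spanned 3.43-fold (0.700 to 2.40) and their CPM 7.18-fold. For myeloid markers the order was the other way, with a ratio that spanned 6.37-fold (0.573 to 3.65) and a CPM that spanned 5.56-fold. Olfactory receptor CPM itself spanned 21.2-fold. The spans of the B and mast cell ratios widened without the gene with the most reads, and so did those of their CPM. Without JCHAIN the ratio of the other 7 B markers spanned 5.92-fold (0.037 in forage_control 4 to 0.219 in grain_control 3) and their CPM 103.3-fold. Without KIT the mast cell ratio spanned 4.30-fold (0.0307 in forage_control 5 to 0.132 in grain_control 1) and the CPM 48.5-fold. Without CSF1R, their most-read gene, the myeloid markers spanned 5.90-fold in ratio and 5.82-fold in CPM. The B and myeloid ratios were then about equally wide, but of these only the B ratio was narrower than its CPM. Without CD3G the T and NK ratio spanned 3.18-fold and the CPM 9.28-fold.

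**Figure D5:**
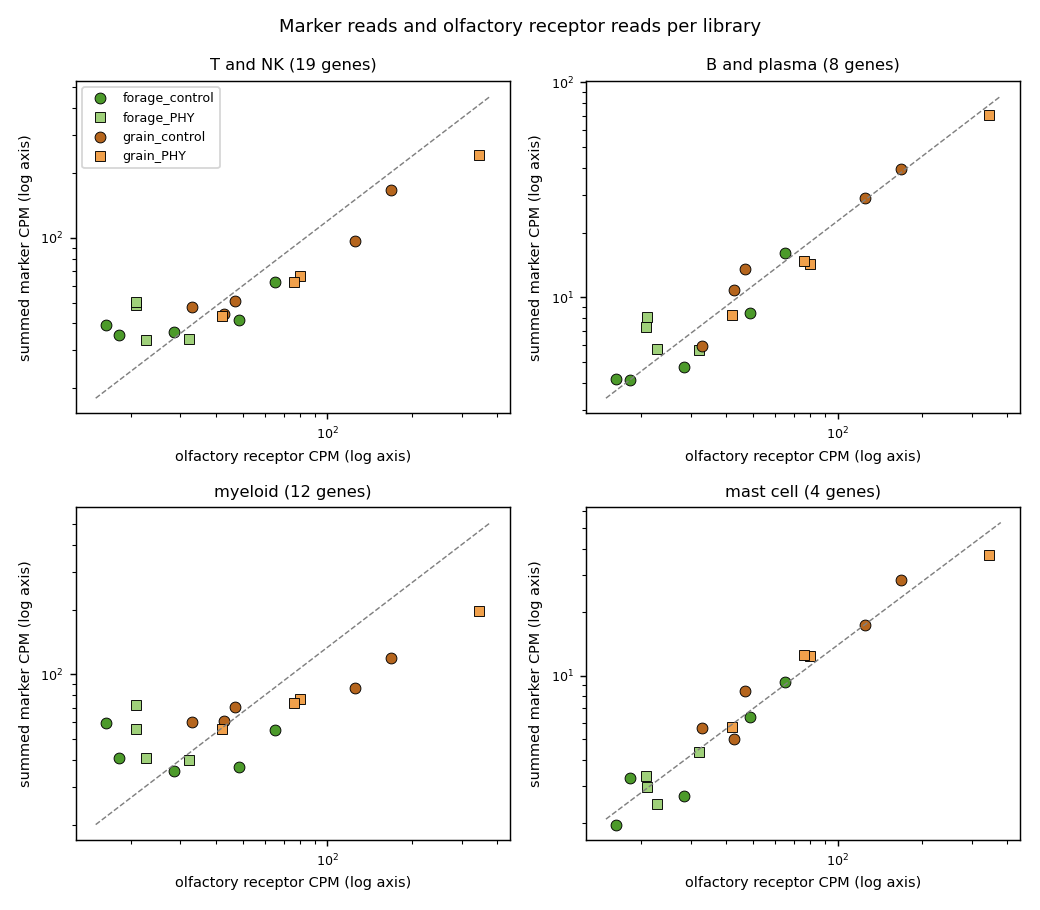
Summed CPM of the total for the markers of each lineage against olfactory receptor CPM in the 18 libraries, both on log axes, with colours and shapes for the 4 groups. The dashed line is a constant ratio of the 2, at the geometric mean of all libraries. B and plasma cell markers (ratio 0.167 to 0.387) and mast cell markers (0.0947 to 0.181) lie along it with JCHAIN and KIT included. Without these genes their ratios span 5.92-fold and 4.30-fold, and their CPM 103.3-fold and 48.5-fold. Myeloid markers lie above the line at low and below it at high olfactory receptor CPM.

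By diet, the T and NK ratio had a median of 1.48 on forage (0.857 to 2.40) and 0.985 on grain (0.700 to 1.46). The B and plasma cell ratio had medians of 0.248 and 0.203, the myeloid ratio 1.79 and 0.973, and the mast cell ratio 0.135 and 0.155. The mean log2 difference between the diets was −0.72 for T and NK markers (SD within groups 0.48) and −0.19 for B and plasma cell markers (0.31). It was −0.79 for myeloid (0.73) and 0.14 for mast cell markers (0.28). The ranges of the 2 diets overlapped in all 4 lineages. In the B set JCHAIN held the most reads and in the mast cell set KIT, and without them the differences were 0.43 and 0.46.

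With olfactory receptor reads as the scale of each library in place of the usual normalization, a choice made after seeing the data, edgeR called 1 marker higher on grain, CPA3 (log2 1.11 ± 0.45, adjusted p = 0.0287), and 18 lower. The lower markers included PTPRC (−1.25 ± 0.45, edgeR adjusted p = 0.0147), CD3E (−1.0), CSF1R (−1.27), CD207 (−1.20) and JCHAIN (−1.41). On this scale 2.55% of all genes were higher, 50.1% lower, and the median over all genes was −0.93, against −0.35 over the markers. FLT3 stood at 0.63 ± 0.35 (edgeR adjusted p = 0.115) and CD8A at 0.69 ± 0.38 (edgeR adjusted p = 0.122).

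The third comparison took the diet response in each arm. In PHY cows 0 of 44 markers and 0% of all genes passed edgeR's test, with 16 markers at an unadjusted p under 0.05 against 39.7% of all genes. The smallest adjusted p, shared by CD8A, ITGAM, FLT3 and CPA3, was 0.0696. In that arm ITGAM had a log2 difference of 2.18 ± 0.57, CD8A of 2.63 ± 0.70, FLT3 of 1.93 ± 0.53 and CPA3 of 3.05 ± 0.92. DESeq2 called 14 markers there, limma with voom weights 18, and edgeR on the PHY libraries alone 16 of 40, against 23.8%, 35.6% and 24% of all genes. Without grain_control 1 or without forage_control 5, libraries of the other arm that share the estimate of the spread, edgeR called 4 in each case, against 6.64% and 7.56% of all genes. With olfactory receptor reads as the scale 15 markers were lower on grain in PHY cows, against 46.9% of all genes.

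In control cows 0 of 44 markers passed with edgeR, DESeq2 or limma voom (0% of all genes with each), and 4 had an unadjusted p under 0.05 with edgeR, against 11.3% of all genes. FLT3 had the smallest p, at 1.56 ± 0.47 (edgeR adjusted p = 0.432). CD8A was at 0.77 ± 0.60, ITGAM at 0.79 ± 0.49 and CPA3 at 1.02 ± 0.76. The difference between the arms' diet responses was tested directly, and 0 of 44 markers passed with edgeR, DESeq2 or limma voom (0% of all genes with each). The smallest p was that of CD8A, 1.86 ± 0.90 larger in PHY cows (edgeR unadjusted p = 0.0497, adjusted p = 0.954), the 1 marker with an unadjusted p under 0.05, against 1.99% of all genes.

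PHY was then compared with control on each diet, in contrasts that share libraries with those above. On forage 0 of 44 markers passed with edgeR, DESeq2 or limma voom (0% of all genes with each), and KLRB1 (−1.51 ± 0.68, edgeR unadjusted p = 0.0353, adjusted p = 1) was the 1 marker with an unadjusted p under 0.05, against 1.6% of all genes. In KLRB1 forage_control 2 and 3, at 2.99 and 3.13 CPM, stood above the other forage libraries, which lay between 0.332 and 0.830. On grain 0 of 44 passed with any of the 3 tools (0% of all genes with each), and 0 had an unadjusted p under 0.05 with edgeR, against 2.57% of all genes. The smallest p there was that of CD28 (−1.47 ± 0.83, edgeR unadjusted p = 0.0885), for which grain_control 1 stood at 3.99 CPM and the other grain libraries between 0.18 and 1.32. The medians of the markers were −0.16 on forage and 0.11 on grain.

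Other genes of the same lineages, from lists made with earlier results of these data known, were read in the same fits. Over all genes 18.1% were higher and 13.8% lower on grain, and 31.5% had a positive and 27.9% a negative slope past the test. Of 30 further T and NK genes 6 rose and 1 fell on grain, and 19 had a positive and 2 a negative slope on olfactory receptor reads. EOMES, a transcription factor of cytotoxic and NK cells, rose by 1.82 ± 0.47, and FOXP3, that of regulatory T cells, by 1.67 ± 0.55. BCL11B, a T cell factor that keratinocytes of the skin also express, fell by 0.53 on the log2 scale.

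Of 21 further B and plasma cell genes 8 rose and 2 fell, and 12 had a positive and 4 a negative slope. FCER2, the low-affinity IgE receptor, rose by 1.42 ± 0.34, and FCRLA, a B cell protein of the Fc receptor family, by 2.12 ± 0.57. SDC1, a syndecan of plasma cells that stratified epithelium also carries, fell by 0.80 ± 0.22. Of 38 further myeloid genes 14 rose and 1 fell (23 positive and 1 negative slopes), among them the Fc receptor FCGR1A (1.46 ± 0.36) and the granule enzyme MPO (1.85 ± 0.48). The mast cell tryptase TPSB2 rose by 2.02 ± 0.65, as the 1 riser of 7 further mast cell genes, and HPGD fell by 0.79 ± 0.26.

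With olfactory receptor CPM in the model the medians of these lists were −0.23, −0.03, 0.12 and 0.03 in the same order. Markers of melanocytes and red blood cells, which are no leukocytes, had medians of 1.41 and 1.52 on grain without that term and 0.13 and 0.02 with it. Their slopes were positive past the test in 5 of 6 and 6 of 11 genes, with medians of 1.06 and 0.88, beside 1.01 for the B lineage and 0.87 for mast cell markers. Markers of fibroblasts, endothelium and smooth muscle did not share this. Their medians on grain were 0.04, −0.11 and −0.11 without the term and 0.95, 0.24 and 0.48 with it. Slopes past the test were positive in 0 of 12, 1 of 12 and 0 of 8 genes and negative in 2, 3 and 0. The median slopes were −0.56, −0.16 and −0.37. Epithelial genes had 11 negative slopes and 1 positive of 13 (median −0.45). No gene of these lists was at 0 reads in every library.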

How the data were processed

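Values were the raw read counts per Ensembl gene that the authors deposited for 18 libraries. The submitters' processing notes name bcl2fastq 2.20, DESeq2 and the build bosTau9. Not given in the sources used here were the aligner, the counting tool, the annotation and the use of strand. The authors' table of normalized values was not used. Genes that overlap another gene in RefSeq names (PTPRC, LCK, GZMA, MS4A1, AIF1 and FLT3) or belong to near-identical families (GZMA, GZMB, KLRB1, CD163 and LYZ) may share reads and are uncertain. No coordinates or sequences are given.

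Counts of all genes were tested with edgeR 4.0.16 (R 4.3.3), quasi-likelihood F test, robust dispersion, TMM, filterByExpr by group (minimum count 10), 1 mean per group, Benjamini-Hochberg over 22202 genes, call at an adjusted p under 0.05. The biological coefficient of variation was 51.4%. The olfactory receptor term was log2 CPM of total reads over 144 genes. Total reads per library limit precision, since most markers had under 100 reads. No pair of libraries was identical (0 pairs), and log2 CPM correlated at 0.858 to 0.990 within groups. Nothing beyond the labels says how libraries relate to cows, so p-values measure the spread between libraries. Alternatives were DESeq2 1.42.0 and limma 3.58.1 (voom), other size factors, filters, leave-outs and the olfactory receptor term or scale. The fit was tested on simulated data, whose spread and outcome are not given here, so that test lends no support to the calls.

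The markers and lists were chosen with earlier results of these data known, so no list was tested. Values were printed for 16 preset markers, for up to 4 called per lineage by smallest p, and for the smallest p of every contrast. Some of them have CPM for each library, and others only ranges, medians or a log2 difference. NKG7, CD5, CD6 and other markers outside this rule were named after their values were seen.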

Additional observations from a re-analysis of the deposited data

Results flagged for a closer look

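Over all 44 markers and the 4 lineage ratios, each in 4 groups, 17 of 192 sets of libraries had 1 library far from the others by Dixon's criterion. Chance alone meets it in about 1 of 20 sets of independent, normally distributed values. These sets share libraries and hold untransformed levels, many at low counts, so 17 cannot be set against that rate. Library grain_control 1 was highest in 6 of the 17: CD4 (10.8 CPM), CD8B (5.56 CPM), CD28 (3.99 CPM), NKG7 (1.69 CPM), CD79B (2.30 CPM) and C1QA (5.20 CPM). Library grain_PHY 1 was highest in another 6: LCK (9.10 CPM), NKG7 (2.92 CPM), PAX5 (7.58 CPM), MZB1 (2.49 CPM), POU2AF1 (4.98 CPM) and ITGAM (16.5 CPM). Both were also highest in olfactory receptor CPM (168.6 and 345.3), and the part of that in the markers' levels was not tested here. The other sets were PTPRC in grain_control (26.1 CPM in library 3), CD4 and CD79B in forage_PHY (4.96 and 0.405 CPM in library 2) and CD207 in forage_control (7.2 CPM in library 4). C1QC in forage_PHY was the 1 set with a low library (0.831 CPM in library 3).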

How the results depend on the processing

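No paired analysis was possible because the labels carry no replicate numbers or cow identities. Between the diets, limma voom called 23 markers (22 higher, 1 lower), DESeq2 20, DESeq2's size factors in edgeR 17, no filter 12 and a stricter filter 15 of 37. The olfactory receptor covariate gave 0, as did omission of the 3 libraries with the most of these reads per total. Leaving out 1 library at a time gave 0 to 20 markers between the diets, 0 to 4 in PHY cows and 19 to 23 slopes. The shares of all genes ran from 0.00445% to 43.3%, from 0% to 7.56% and from 51.8% to 59.6% in the same order. In PHY cows DESeq2 called 14, limma voom 18, only the groups compared 16, and olfactory receptor reads as the scale (added after seeing the data) 15, all lower. In the shared olfactory receptor range (6 libraries, 2 residual degrees of freedom) 0 slopes were called, at a larger median slope (0.60 against 0.40), so this count says nothing of stability. Without JCHAIN the B lineage ratio moved to 0.43 and without KIT the mast cell ratio to 0.46.

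Log2 fold changes that changed sign between the diets were, with the covariate, CD3E −0.0495, CD27 −0.51, GZMA −0.15, GZMB −0.00589, MS4A1 −0.17, CD79A −1.25, PAX5 −0.0242, CD22 −0.37 and JCHAIN 0.41. With olfactory receptor reads as the scale they were CD3E −1.0, CD4 −0.33, CD79A −0.38, CD163 −0.54, C1QA −0.81, CD207 −1.20 and KIT −0.28. CD79A was −0.0557 without the 3 highest libraries. CSF1R was 0.0264 with DESeq2's size factors, 0.0251 with DESeq2, 0.11 with the stricter filter and 0.00359 with voom. CD207 was −0.00390 with no filter and −0.0554 with voom, and JCHAIN 0.20 with voom. Leaving out 1 library, CD3E ran from −0.0145 to 0.25, CSF1R from −0.16 to 0.0118 and CD207 from −0.10 to 0.16. On grain, CD28 (PHY against control) was 0.10 in the shared range. The cause of each was not tested. The shared range held no forage_PHY library, so contrasts that need that group were not run there.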
